A study of Homo sapiens with 6 samples.

Results

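The anaphase-promoting complex or cyclosome (APC/C) is a ubiquitin ligase, and 10 genes of its machinery were followed here in HK-2, an established cell line derived from human proximal tubules. They were taken by symbol from tables of 28565 genes, and each of the 10 had 1 entry: the activators CDC20 and FZR1, the ubiquitin-conjugating enzymes UBE2C and UBE2S, the inhibitor FBXO5, the substrate PTTG1 (securin) with its partner ESPL1 (separase), the F-box protein CCNF (cyclin F), and the core subunits CDC27 and ANAPC1. In all 6 RNA-seq libraries the cells had received a plasmid that overexpresses a long noncoding RNA, called LncR2 in the sample titles. The labels give 3 libraries as exposed to cisplatin, a platinum drug that crosslinks DNA, for 0 h and 3 for 24 h. The comparison asks how the transcripts of these genes differ after 24 h of the drug in cells that all carry the plasmid. Cells with a control plasmid were not analysed here, so the drug and the time since transfection cannot be told apart.

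The APC/C attaches ubiquitin chains to mitotic proteins and so marks them for the proteasome. CDC20 activates it at the metaphase to anaphase transition and FZR1 (CDH1) from late mitosis through G1, UBE2C starts the chains, and UBE2S lengthens them. When PTTG1 is destroyed, ESPL1 is released and cuts cohesin, which lets sister chromatids part. FBXO5 (EMI1) holds the ligase inactive through S and G2 phase, and CCNF is a substrate recognition subunit of another ubiquitin ligase, SCF. Many of these genes are transcribed mainly in G2 and mitosis, so in bulk RNA fewer cells in those phases and less RNA per cell cannot be told apart.

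Promoter windows from RefSeq (GRCh38.p14), from 250 bases before to 50 after an annotated start, were present for 9 of the 10 genes, in 12 windows, and UBE2C was not among them. They were searched on both strands for TTTGAA, the cell cycle genes homology region (CHR) bound by DREAM and MuvB complexes, for CCAAT, the box bound by NF-Y, and for the E2F site GGCGGGAA. A CHR was found in 6 of the 9 genes and in 15.2% of all 35116 windows of this length. A CCAAT box was found in 7 of the 9 and in 34.6% of all windows, and the exact sequence GGCGGGAA in 0 of the 9 and in 3.16%. No other form of an E2F site was searched, and at that share 0 of the 9 does not show that E2F sites are absent. A gene counts as holding a motif if any of its windows does, and CCAAT boxes on opposite strands can overlap each other. The 4 genes with both a CHR and a CCAAT box in 1 window (5.90% of all windows hold both) are printed 5′ to 3′ along the gene's own strand, with the matches in capitals. They are shown because they hold the 2 genes with the smallest p-values, CDC20 and CCNF, and also FBXO5, whose estimate had the opposite sign. The windows are chr1:43358731-43359030 (plus strand) for CDC20, chr16:2429197-2429496 (plus) for CCNF, chr12:53268049-53268348 (plus) for ESPL1 and chr6:152982992-152983291 (minus) for FBXO5.
CDC20: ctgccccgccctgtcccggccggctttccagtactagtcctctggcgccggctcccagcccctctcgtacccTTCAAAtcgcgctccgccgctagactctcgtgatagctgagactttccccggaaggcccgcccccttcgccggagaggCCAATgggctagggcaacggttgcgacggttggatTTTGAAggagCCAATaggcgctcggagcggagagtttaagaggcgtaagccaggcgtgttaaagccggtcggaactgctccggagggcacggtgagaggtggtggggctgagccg
CCNF: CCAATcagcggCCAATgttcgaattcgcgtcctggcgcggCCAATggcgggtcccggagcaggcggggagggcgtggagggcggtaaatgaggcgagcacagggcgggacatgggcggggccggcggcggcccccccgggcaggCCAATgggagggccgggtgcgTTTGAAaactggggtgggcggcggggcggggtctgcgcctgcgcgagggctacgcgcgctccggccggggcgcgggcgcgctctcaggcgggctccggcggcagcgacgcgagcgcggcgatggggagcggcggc
ESPL1: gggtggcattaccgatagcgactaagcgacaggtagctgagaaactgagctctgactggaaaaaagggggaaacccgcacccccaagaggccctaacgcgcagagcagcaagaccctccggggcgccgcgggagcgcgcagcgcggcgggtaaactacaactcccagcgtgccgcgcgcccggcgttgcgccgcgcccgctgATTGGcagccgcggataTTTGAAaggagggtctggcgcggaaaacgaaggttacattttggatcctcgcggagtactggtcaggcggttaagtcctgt
FBXO5: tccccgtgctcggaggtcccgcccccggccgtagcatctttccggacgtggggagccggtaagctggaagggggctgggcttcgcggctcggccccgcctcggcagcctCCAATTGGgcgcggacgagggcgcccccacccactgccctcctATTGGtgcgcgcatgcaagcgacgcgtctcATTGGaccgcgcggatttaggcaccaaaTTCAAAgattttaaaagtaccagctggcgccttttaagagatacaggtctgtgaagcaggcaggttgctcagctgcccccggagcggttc
In CDC20 a CHR in the forward direction lay at bases -65 to -60 from the start with CCAAT boxes at -100 to -96 and -55 to -51. In CCNF the CHR was at -85 to -80 with 4 CCAAT boxes upstream of it, and in ESPL1 it was at -31 to -26 with a CCAAT box, read on the other strand, at -48 to -44. In FBXO5 the CHR was read on the other strand, at -40 to -35, below 4 CCAAT matches. Matched letters are a description of the window and are not evidence of binding.

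The 3 libraries at 0 h held 5028881 to 5844246 counts in all, and those at 24 h held 6022268 to 7248754. Library 3 of the 0 h group stood apart on the second principal component of all genes tested (28.4% of the variance), at -27.2 against 8.05 and -1.42 for the other 0 h libraries. It also left its group on the first component (40.1%), at 0.87 against -21.3 and -22.0. The 24 h libraries were at 6.02 to 20.5 there, so on the first component 0 h library 3 lay nearer to 24 h library 1 than to its own group. On the second component 24 h library 1 was at 14.1, farther from it than the other 0 h libraries were. Epithelial markers of a renal line summed to between 1081 and 1166 CPM (read counts scaled to a common library size) at 0 h and between 1046 and 1168 at 24 h, with 0 of 7 called. Of 8 proximal tubule markers, GGT1 had 263 to 445 counts per library, CUBN, AQP1, SLC34A1, SLC5A2, ANPEP and HNF4A had at most 6, and LRP2 was not analysed here. Defining leukocyte and endothelial markers were near 0, with sums of at most 2.17 and 0.434 CPM, and 4 fibroblast markers summed to 14.4 to 15.5 CPM at 0 h and 15.6 to 19.0 at 24 h, with 0 called. The part of the fibroblast markers in the results below was not tested.

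Of the 10 genes, CDC20 fell and 0 rose at 24 h. Calls are those of the quasi-likelihood test in edgeR at an adjusted p under 0.05, with the Benjamini-Hochberg adjustment made over 13389 genes. The background was 2.08% of all genes tested called lower and 0.866% called higher, or 2.94% in either direction. All 10 passed the filter on low counts, and their median log2 fold change (24 h over 0 h) was -0.20, against -0.0016 for all genes tested, with 8 of the 10 below 0. An unadjusted p under 0.05 was reached by 2 of the 10, CDC20 and CCNF, and by 18.1% of all genes, so that share is near the background. The 24 h values lay wholly below the 0 h values in 3 of the 10 (CDC20, CCNF and UBE2C) and wholly above in 0, on the CPM scale after TMM scaling, compared with 11.7% and 10.9% of all genes (22.6% in either direction). DESeq2 also called 1 of the 10 lower and 0 higher, where 1.55% and 0.904% of all genes were called. Of the 10, limma on log2(FPKM + 1) called 0 in either direction, where 1.03% of all genes were called lower and 12.4% higher.

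**Figure D1:**
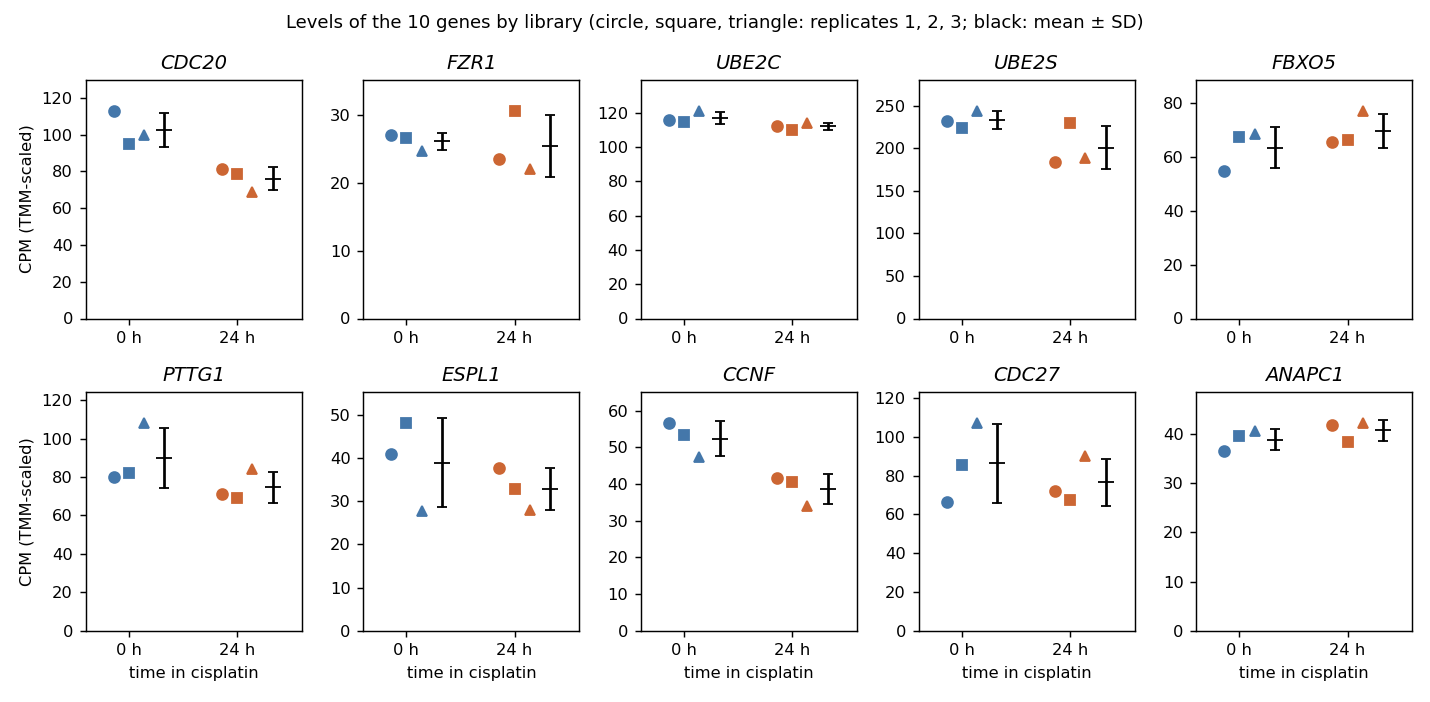
Levels of the 10 genes in each library, as CPM of TMM-scaled totals on a linear axis from 0, at 0 h (blue) and 24 h (orange) of cisplatin. Black marks give the mean ± SD of 3 libraries, and only in CDC20, CCNF and, by a small margin, UBE2C do all 24 h points lie below all 0 h points.

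Of the activators, CDC20 was called lower and FZR1 was not called. CDC20 (ENSG00000117399.13, chromosome 1, 43358955 to 43363203 in GENCODE 29 on GRCh38) had 113, 94.7 and 99.7 CPM in 0 h libraries 1, 2 and 3 and 81.0, 78.3 and 69.0 CPM in the 24 h libraries. The groups did not overlap, with the lowest value in 24 h library 3. CDC20 averaged 102 ± 9.38 CPM over the 0 h libraries and 76.1 ± 6.30 CPM over the 24 h libraries (± SD, n = 3 each). Its log2 fold change was -0.43 ± 0.11 (standard error of the fit) with a 95% interval from -0.66 to -0.20, and the edgeR adjusted p was 0.0423. That call lay close to the threshold: without 0 h library 1 or 2 the adjusted p was 0.129 and 0.0951, without 24 h library 1, 2 or 3 it was 0.0736, 0.174 and 0.158, and without 0 h library 3 it was 0.00419. Over these 6 fits the log2 fold change ran from -0.49 to -0.35.

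FZR1 (ENSG00000105325.13, chromosome 19, 3506273 to 3538330) had 27.1, 26.7 and 24.7 CPM at 0 h and 23.6, 30.7 and 22.1 CPM at 24 h. Its groups overlapped, since 24 h library 2 was the highest of all 6 and the other 24 h libraries were the lowest. The log2 fold change was -0.04 ± 0.15 with an interval from -0.35 to 0.27 (edgeR adjusted p = 0.921), which overlaps the interval of CDC20. Per unit of gene length and within each library, CDC20 was the more abundant activator transcript. The ratio of CDC20 to FZR1 FPKM (the authors' fragment values scaled by length and library) was 11.9, 10.2 and 11.5 in the 0 h libraries and 9.79, 7.29 and 8.92 in the 24 h libraries. The 2 sets of ratios did not overlap, and a scaling factor of a library cancels in them. No test was made of this ratio.

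The conjugating enzymes had the highest mean FPKM of the 10 transcripts, UBE2S with the limit given below, and were not called. UBE2C (ENSG00000175063.16, chromosome 20, 45812576 to 45816957) had 116, 114 and 121 CPM at 0 h and 112, 110 and 114 CPM at 24 h. These values barely separated, and the log2 fold change was -0.06 ± 0.09 with an interval from -0.26 to 0.13 (edgeR adjusted p = 0.781). In the authors' FPKM the order was the other way round, with 50.4, 50.6 and 52.9 at 0 h and 53.6, 58.2 and 62.0 at 24 h, so that every 24 h value was above every 0 h value. The direction for UBE2C therefore turns with the scaling: the library totals behind the FPKM, relative to the counts in the table, were 1.09, 1.09 and 1.06 times their mean at 0 h and 1.00, 0.884 and 0.882 times at 24 h. Scaled by those totals, the median of all genes tested moved to 0.24 on the log2 scale and UBE2C was at 0.18, which is 0.06 below that median, as in the TMM fit.

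UBE2S (ENSG00000108106.13, chromosome 19, 55399745 to 55407777) had 232, 223 and 244 CPM at 0 h and 184, 230 and 188 CPM at 24 h. Library 2 of the 24 h group lay among the 0 h values while the other 24 h libraries were below all of them. The log2 fold change was -0.22 ± 0.11 with an interval from -0.44 to 0.01 (edgeR adjusted p = 0.301). On the opposite strand the whole span of the ribosomal protein gene RPL28, introns included, covers 2018 bases of UBE2S exons. The overlap of exons with exons was not measured. Counts for RPL28 were 3003 to 4981 per library. Whether counting used strand is not stated, so the level of UBE2S is uncertain. RPL28 itself was at a log2 fold change of 0.0048 ± 0.11. The FPKM ratio of UBE2C to UBE2S was 0.987, 1.02 and 0.983 at 0 h and 1.21, 0.947 and 1.20 at 24 h, so the 24 h ratios lay on both sides of the 0 h ones.

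FBXO5 (ENSG00000112029.9, chromosome 6, 152970519 to 152983579), the interphase inhibitor, had 54.8, 67.2 and 68.3 CPM at 0 h and 65.5, 66.3 and 77.1 CPM at 24 h. The lowest value was in 0 h library 1 and the highest in 24 h library 3, and the groups overlapped between them. Its log2 fold change was the highest of the 10, 0.13 ± 0.12 with an interval from -0.12 to 0.38 (edgeR adjusted p = 0.601). FBXO43 (EMI2), its relative that acts in meiosis, was rare: the 0 h libraries held 23, 28 and 26 of its reads, the 24 h libraries 7, 12 and 21. FBXO43 fell by 1.31 ± 0.33 on the log2 scale (edgeR adjusted p = 0.0429), a call that DESeq2 did not make and that was lost without either of 0 h libraries 1 and 2 or 24 h libraries 1 and 2, with an adjusted p of at most 0.222.

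CCNF (ENSG00000162063.12, chromosome 16, 2429394 to 2458854) is both an F-box protein and a cyclin, and it is known to recognise the ribonucleotide reductase subunit RRM2. It had 56.6, 53.3 and 47.3 CPM at 0 h and 41.6, 40.5 and 34.0 CPM at 24 h. The groups did not overlap, and within each group library 3 was the lowest. CCNF averaged 52.4 ± 4.72 CPM over the 0 h libraries and 38.7 ± 4.10 CPM over the 24 h libraries (± SD, n = 3 each). Its log2 fold change was -0.44 ± 0.12 with an interval from -0.70 to -0.18, and it did not pass the edgeR test (adjusted p = 0.0665). It passed without 0 h library 3 (edgeR adjusted p = 0.00437) and without both libraries numbered 3 (0.0356). It did not pass without 0 h library 1 or 2 (0.162 and 0.224). Nor did it without 24 h library 1, 2 or 3 (0.0993, 0.200 and 0.206). DESeq2 did not call CCNF either (adjusted p = 0.127). The size of its estimate was close to that of CDC20. The FPKM ratio of CCNF to FBXO5 was 0.575, 0.441 and 0.385 at 0 h and 0.353, 0.340 and 0.245 at 24 h. These values did not overlap between the times. No test was made of this ratio. CCNF had the lowest and FBXO5 the highest log2 fold change of the genes in the main set (-0.44 and 0.13). A ratio of the extremes is the one most apt to separate, so it adds nothing to those estimates. The FPKM ratios of CDC20 to CDC27 and of PTTG1 to CDC20 overlapped between the times, and that of CDC20 to ANAPC1 did not.

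Securin and separase did not pass. PTTG1 (ENSG00000164611.12, chromosome 5, 160421822 to 160428744) had 80.1, 81.9 and 108 CPM at 0 h and 71.1, 69.2 and 84.1 CPM at 24 h. Library 3 was the highest in each group, and the groups overlapped only through 24 h library 3. The log2 fold change was -0.27 ± 0.13 with an interval from -0.54 to 0.00047 (edgeR adjusted p = 0.276), and it was -0.11 without 0 h library 3. ESPL1 (ENSG00000135476.11, chromosome 12, 53268299 to 53293643) ran the other way across the libraries, with 40.9, 48.0 and 27.7 CPM at 0 h and 37.6, 32.7 and 27.8 CPM at 24 h, so that library 3 was the lowest in each group. Its log2 fold change was -0.25 ± 0.17 with an interval from -0.61 to 0.12 (edgeR adjusted p = 0.489). Without 0 h library 3 ESPL1 was at -0.44 and passed (adjusted p = 0.0239), and without 0 h library 2 it was at -0.07. The FPKM ratio of PTTG1 to ESPL1 was 11.3, 9.85 and 22.5 at 0 h and 10.9, 12.2 and 17.5 at 24 h, a spread between libraries that was wider than the difference between the times. PTTG2, a copy of PTTG1, had at most 1 count in any library.

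The 2 core subunits, which are needed in every phase in which the ligase works, were not called. CDC27 (ENSG00000004897.11, chromosome 17, 47117703 to 47189422), an arm subunit that binds the activators, had 66.2, 85.7 and 107 CPM at 0 h and 71.9, 67.4 and 90.0 CPM at 24 h. As for PTTG1, library 3 was the highest in each group, and the groups overlapped. The log2 fold change of CDC27 was -0.18 ± 0.15 with an interval from -0.50 to 0.15 (edgeR adjusted p = 0.593), and it was 0.01 without 0 h library 3. For ANAPC1 the position given is that of GENCODE 29, which holds another version of its identifier. ANAPC1 (ENSG00000153107.11, chromosome 2, 111611639 to 111884690), the largest scaffold subunit, had 36.5, 39.6 and 40.6 CPM at 0 h and 41.9, 38.4 and 42.2 CPM at 24 h. Its values overlapped, with a log2 fold change of 0.07 ± 0.11 and an interval from -0.17 to 0.31 (edgeR adjusted p = 0.806). The pseudogenes CDC27P1 and ANAPC1P1, which could share reads with them, had at most 1 and 5 counts per library.

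**Figure D2:**
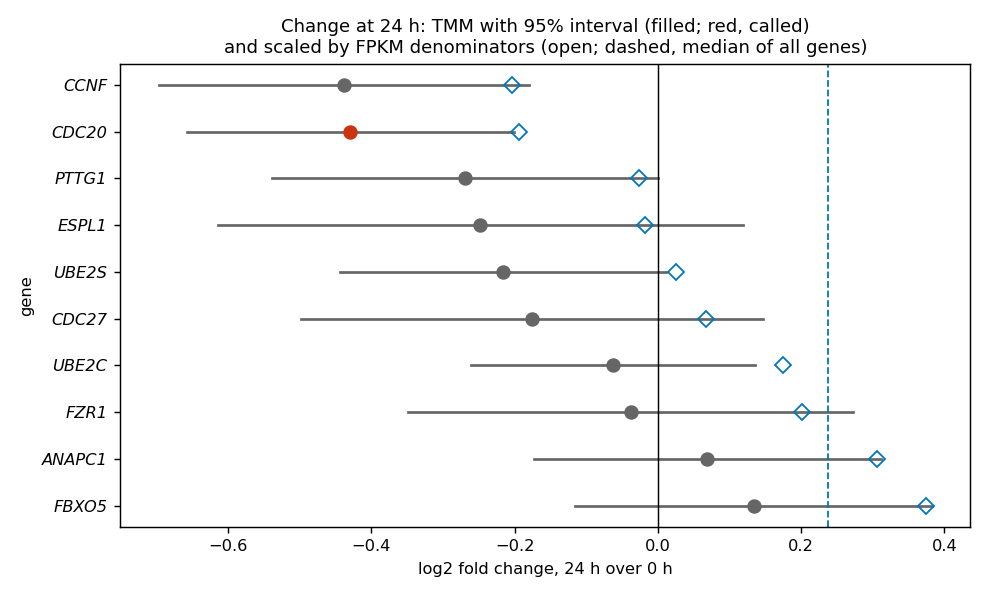
Log2 fold change of each gene, 24 h over 0 h, from the TMM-scaled fit with its 95% interval (filled, red where called) and from the same fit scaled by the totals behind the authors' FPKM (open). The dashed line is the median of all genes under the latter scaling (0.24), and the order of the 10 genes relative to the median gene is alike under both.

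In that scaling CDC20 was at -0.19 and CCNF at -0.20, or -0.43 and -0.44 relative to the median gene, and neither passed. FBXO5 and ANAPC1 were at 0.37 and 0.31, and 0 of the 10 were called in either direction, where 1.46% of all genes were called lower and 17.6% higher. Changes of these genes are therefore stated relative to the median gene. Under TMM scaling 29.4% of all calls were rises, against 92.3% with the FPKM totals.

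Levels between genes were compared as FPKM, which is scaled by length. At 0 h the order was UBE2S (51.6 ± 1.99 FPKM, mean ± SD, n = 3), UBE2C (51.3 ± 1.35), PTTG1 (44.1 ± 7.49), CDC20 (31.6 ± 2.71), FBXO5 (15.0 ± 1.83), CDC27 (8.36 ± 1.97), CCNF (6.90 ± 0.630), ESPL1 (3.30 ± 0.894), FZR1 (2.82 ± 0.142) and ANAPC1 (2.66 ± 0.154). The place of UBE2S is uncertain at both times because of its overlap with RPL28. The ranges of mean ± 1 SD overlapped between UBE2S and UBE2C, UBE2C and PTTG1, CDC27 and CCNF, ESPL1 and FZR1, and FZR1 and ANAPC1. The steps from PTTG1 to CDC20, from CDC20 to FBXO5, from FBXO5 to CDC27 and from CCNF to ESPL1 were wider than the SDs. The step from PTTG1 to CDC20 rests on the lengths behind the authors' FPKM, which are not stated. In CPM the 0 h mean of CDC20 was the higher one (102 against 90.0), and the exons of CDC20 and PTTG1 cover 2038 and 2013 bases in GENCODE 29. At 24 h the first 7 places held the same genes with UBE2C (57.9 ± 4.19) ahead of UBE2S (52.5 ± 8.54), and ANAPC1, ESPL1 and FZR1 lay between 3.24 and 3.28 FPKM. The separase transcript was thus listed at far lower FPKM than that of its inhibitor securin, and FZR1 far lower than CDC20, in every library.

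**Figure D3:**
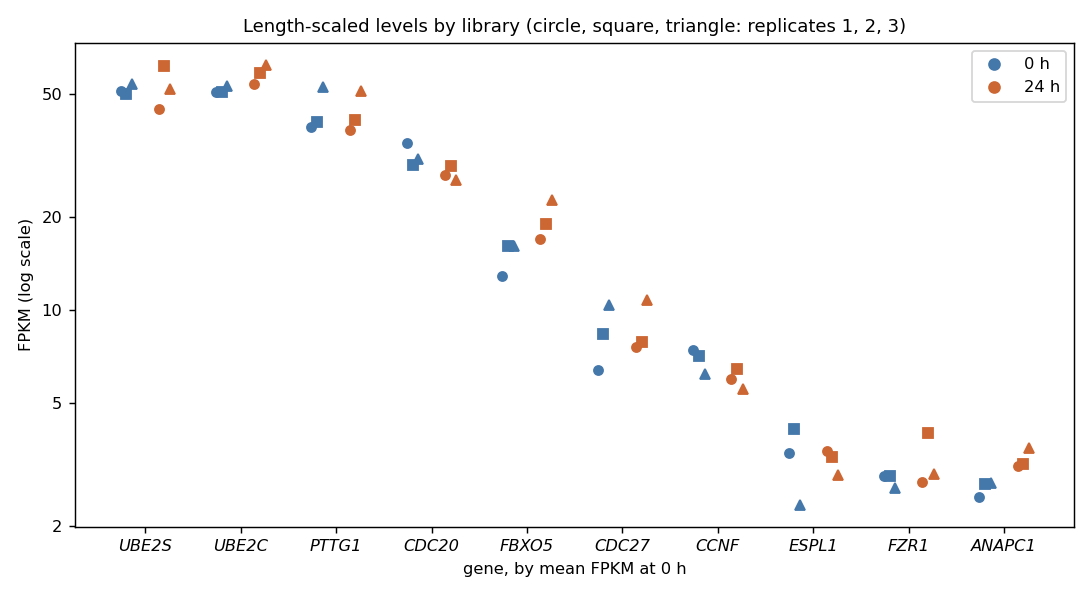
FPKM of the 10 genes in each library on a log axis, ordered by the mean at 0 h (blue, 0 h; orange, 24 h; symbols mark replicates 1, 2 and 3). UBE2S, UBE2C and PTTG1 sit near 50, and ESPL1, FZR1 and ANAPC1 near 3, at both times.

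The remaining genes of the pathway were read from the same fit. Of 14 core subunits, CDC27 and ANAPC1 included, edgeR and DESeq2 called 0, and 1 had an unadjusted p under 0.05, while limma on log2(FPKM + 1) called 2 higher and the fit with the FPKM totals 3. These are near the shares of all genes called higher under those settings, 12.4% and 17.6%. Their log2 fold changes ran from -0.33 to 0.40 with a median of 0.02. The smallest p-values were those of ANAPC2, the cullin subunit (0.40 ± 0.14, adjusted p = 0.136), and CDC23, another arm subunit (0.24 ± 0.12, adjusted p = 0.289). Of 15 inhibitors and spindle checkpoint genes tested of 16 listed, FBXO43 fell and 0 rose, with a median of -0.07, 4 with an unadjusted p under 0.05, 0 called by DESeq2, and 1 called lower and 1 higher by limma on log2(FPKM + 1), where 12.4% of all genes were called higher. Of 17 cohesin genes, securin and separase included, 0 were called by edgeR or DESeq2, with a median of -0.19. An unadjusted p under 0.05 was reached by 4 of these 17, as by 4 of the 15 inhibitors and checkpoint genes. Of all genes tested 18.1% reached it, so both counts are near the background. In the cohesin list limma on log2(FPKM + 1) called 1 higher, where 12.4% of all genes were called higher. In that list STAG1, a cohesin subunit, was at -0.42 ± 0.11 (adjusted p = 0.0571) and CDCA5 (sororin), which protects cohesion, at 0.34 ± 0.10 (0.0935).

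Known substrates of the APC/C moved in both directions. Of 38 tested, 10 fell and 4 rose by edgeR, or 26.3% and 10.5%, where 2.08% and 0.866% of all genes tested did. The median of the 38 was -0.20, and 5 of them (CDC20, PTTG1, CCNF, UBE2C and FBXO5) are among the 10 genes of the main set. The list was drawn up with earlier results for mitotic and S-phase genes of these libraries known, so its count is not independent of them. AURKA, a kinase of the spindle poles, fell by 1.08 ± 0.11 on the log2 scale (adjusted p = 6.34e-05), from 102 to 48.5 CPM in the mean. CCNB1, the mitotic cyclin, was at -0.82 ± 0.10, PLK1, a mitotic kinase, at -0.79 ± 0.10, NEK2, a centrosome kinase, at -0.70 ± 0.12, and TPX2, which activates AURKA, at -0.61 ± 0.10, all of them called. TK1, thymidine kinase, rose by 0.64 ± 0.10 (adjusted p = 0.00142). The remaining called genes of this list are named after their values were seen. The falls were those of the mitotic cyclin CCNB2 (-0.56 ± 0.14), the spindle protein NUSAP1 (-0.50 ± 0.11), the kinetochore protein CENPF (-0.48 ± 0.11) and the topoisomerase TOP2A (-0.47 ± 0.12). The rises were those of RRM2, a ribonucleotide reductase subunit (0.59 ± 0.10), the transcription factor E2F1 (0.59 ± 0.11) and CLSPN, of the replication checkpoint (0.48 ± 0.11), which like TK1 act in S phase. The estimate for CDC20 was smaller than these falls, and the difference between CDC20 and AURKA was not tested.

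The counts for substrates depended on single libraries, as did those over all genes. Substrates called were 5 lower and 1 higher without 0 h library 2, 5 and 3 without 24 h library 1, 5 and 2 without 24 h library 2, and 12 and 7 without 0 h library 3. Over all genes the same fits gave 103 lower and 24 higher, 204 and 58, 92 and 21, and 923 and 574, in that order. The fit of all 6 libraries gave 278 and 116. With the FPKM totals 5 substrates were lower and 10 higher, where 1.46% of all genes were called lower and 17.6% higher. AURKA, CCNB1, PLK1, NEK2, TPX2 and TK1 were called in all 6 fits that left out 1 library.

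**Figure D4:**
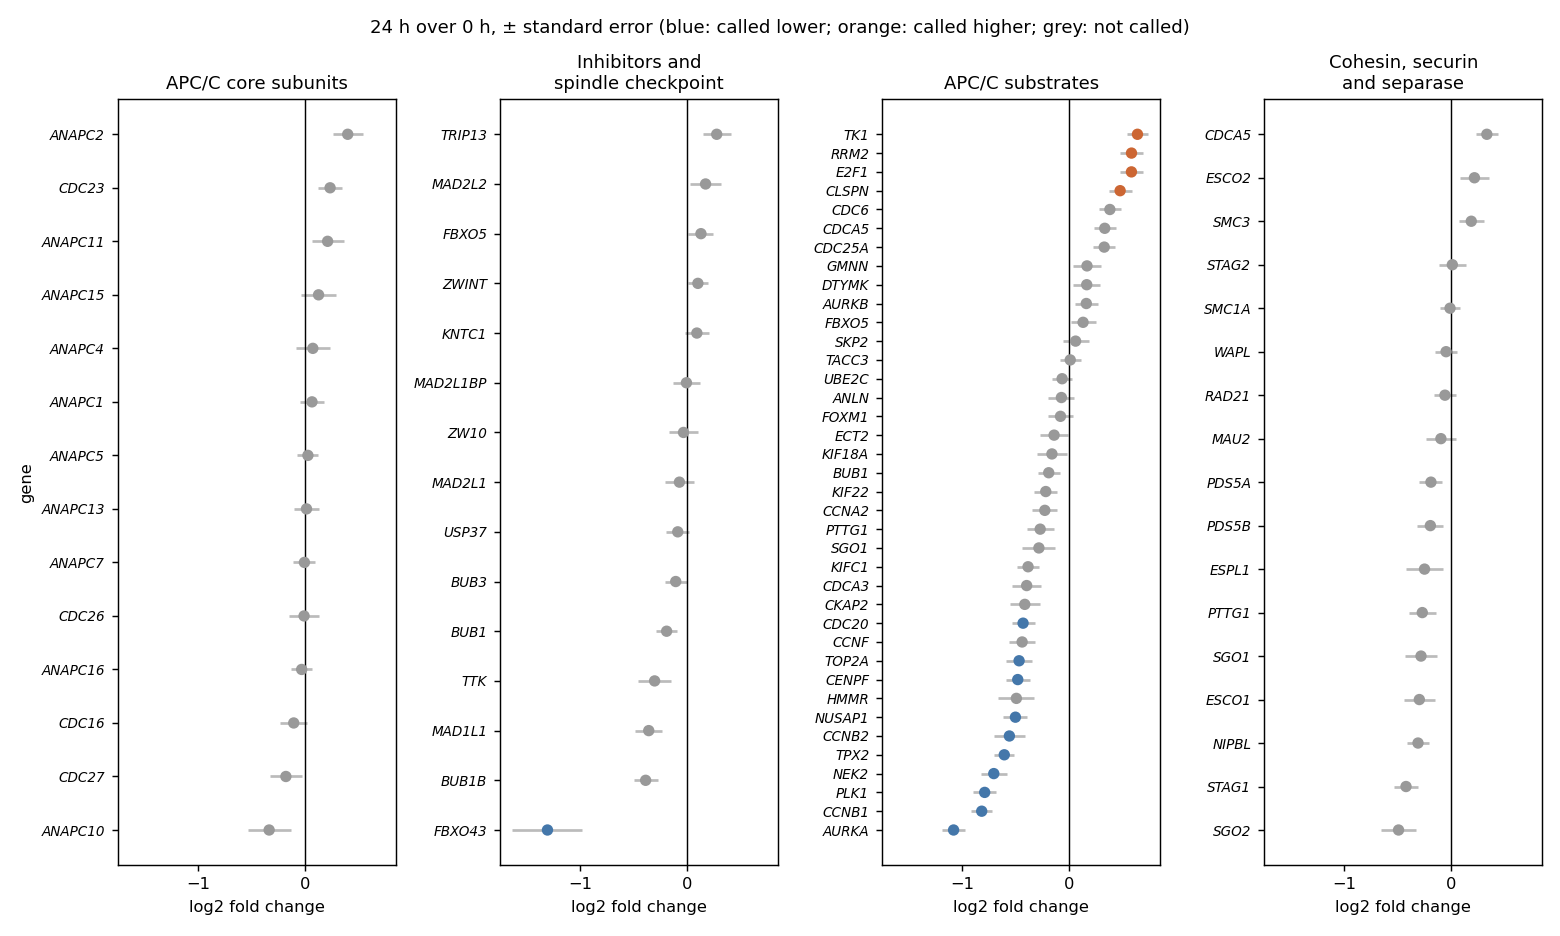
Log2 fold change, 24 h over 0 h, ± standard error for the tested genes of the 4 lists (blue, called lower; orange, called higher; grey, not called). The core subunits lie between -0.33 and 0.40 with 0 called, whereas the substrates run from AURKA at -1.08 to TK1 at 0.64.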

How the data were processed

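Total RNA of HK-2 cells was depleted of ribosomal RNA and sequenced as directional paired ends, per the labels' protocols. The deposited read counts are whole numbers for 28565 genes. The deposited FPKM values cover 28561 genes and were scaled by the authors. The tools TopHat2, bcl2fastq and edgeR and the build GRCh38 are named, without versions, per the submitters' processing notes. The read counter, its annotation and its use of strand are not stated there.

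Counts at 24 h were compared with 0 h by edgeR 4.0.16 (R 4.3.3; limma 3.58.1) with TMM scaling, filterByExpr and the quasi-likelihood test, which left 13389 genes, with Benjamini-Hochberg adjustment over all of them. Fold changes are log2 ± standard error with 3 libraries per group, and CPM use TMM-scaled totals. The script was tested on simulated data. The totals behind the FPKM were recovered as the median, over 3572 genes with more than 300 counts in every library, of the ratio of count to FPKM. Alternatives were other scaling (upper-quartile, RLE, plain totals, the FPKM totals), 2 other filters, DESeq2 1.42.0, robust dispersion, limma on log2 of FPKM plus 1 or 0.1, a replicate block and leaving out libraries.

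The 10 genes and the 4 lists were chosen with earlier results of these data known. Named besides the 10 were, in each list, at most 6 called genes by smallest p, or the 2 with the smallest p where none was called, and near-identical copies. The other 7 called genes of the substrate list were added after their values were seen. Of the listed genes, 3 were matched by identifier because the table holds older symbols. Separate cultures are not stated for the replicates, and the series' design mentions 2 per treatment, so p-values measure the spread between these libraries, which may be technical. No pair of replicates had counts within sampling noise (chi-square over its degrees of freedom from 3.90 to 10.6).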

Additional observations from a re-analysis of the deposited data

How the results depend on the processing

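Among 18 alternatives, the log2 fold changes of CDC20, PTTG1, CCNF, FBXO5 and ANAPC1 kept their sign in all, and CDC20 was called in 9. CDC20 was not called with the FPKM totals, limma at either pseudocount, no filter beyond any count (adjusted p = 0.0626), or without any library other than 0 h library 3, and its adjusted p ran from 0.00137 to 0.267. The sign turned, with no call, for FZR1 (0.20), UBE2C (0.18), UBE2S (0.025) and CDC27 (0.067) with the FPKM totals. With limma on log2(FPKM + 1) and log2(FPKM + 0.1) it turned for FZR1 (0.14 and 0.18), UBE2C (0.17 and 0.17), UBE2S (0.0128 and 0.0128), CDC27 (0.068 and 0.076) and ESPL1 (0.0028 and 0.011). FZR1 was also above 0 with any count (0.012), without both libraries numbered 3 (0.018) and without 24 h library 1 or 3, and ran from -0.19 to 0.052 when 1 library was left out. CDC27 ran from -0.33 to 0.015, the last without 0 h library 3. The cause was not tested.

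Over all genes, calls were 278 lower and 116 higher. They were 195 and 2354 with the FPKM totals (median of all genes 0.24), 138 and 1657 or 136 and 1632 with limma at the larger or smaller pseudocount (92.3% rises in each), 395 and 345 with any count (46.6% rises), and 539 and 306 without both libraries numbered 3. Leaving out 1 library gave 92 to 923 lower and 21 to 574 higher. Of the 10 genes, 1 was called lower. This became 0 with the FPKM totals, limma at either pseudocount or any count, 2 without both libraries numbered 3, and 0 to 3 when 1 library was left out.

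Core subunits called higher were 3 with the FPKM totals and 2 with limma at either pseudocount, against 0. Inhibitors and checkpoint genes called lower were 0 with DESeq2 and 2 without both libraries numbered 3, against 1, and 0 to 2 without 1 library. Those called higher were 2 with the FPKM totals and 1 with limma at either pseudocount, against 0. Substrates called lower and higher were 5 and 10 with the FPKM totals and 4 and 8 with limma at either pseudocount, against 10 and 4, and 5 to 12 and 1 to 7 without 1 library. Cohesin genes called higher were 3 with the FPKM totals and 1 with limma at either pseudocount, against 0. Those called lower were 1 without both libraries numbered 3, against 0, and each direction was 0 to 1 without 1 library.

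The labels number replicates alike at both times, and the numbers matched across the times only in part. Deviations from the group means correlated at 0.24, -0.02 and 0.42 across all genes for numbers 1, 2 and 3. The 0 h libraries 1 and 3 correlated best with the 24 h library of their own number, and 0 h library 2 with 24 h library 1 (0.23). With 3 libraries per group these values do not settle whether the numbers are pairs. A replicate block leaves 2 residual degrees of freedom. With the replicate block, calls over all genes were 959 lower and 739 higher, 3 of the 10 genes were called lower (CDC20, adjusted p = 0.00137, CCNF, 0.00407, and PTTG1, 0.0336), 16 substrates lower and 7 higher, 3 inhibitors and checkpoint genes lower, 1 core subunit higher, and 4 cohesin genes lower and 1 higher. Reads were counted without molecular identifiers, and the call of FBXO43 rested on 7 to 28 counts per library.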
